A study of Homo sapiens with 17 samples.

Results

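Stretch enhancers are long runs of H3K27ac, the acetylation of histone H3 at lysine 27 that marks active enhancers and promoters. Here they were taken from the control arm of HCC1954 cells, a line grown from a human breast cancer that carries extra copies of the HER2 gene. All H3K27ac peaks of both NC1235 lists on the autosomes were joined where 3 kb or less lay between them, and joined regions of at least 10 kb that held a peak of both lists were kept. This gave 994 stretch enhancers out of 33092 joined regions, or 3.00% of the regions and 17.2% of their length. Of the rest, 7362 were 3 to 10 kb wide and 24736 were narrower than 3 kb. The members were therefore chosen on NC1235 H3K27ac, and every H3K27ac value below is a description without a test.

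Cells had been transfected with antisense oligonucleotides and were fixed 72 hours later. The labels name the arms Si1235 and NC1235 without spelling them out, and the series is about the long non-coding RNA LINC01235. Each arm had 2 libraries of H3K27ac, H2AZ and H3K36me3 and 1 library of H3K9ac, and ChIRP, which pulls down DNA lying near an RNA captured by probes, had 1 library, named NC1235. The sources used here do not say which RNA the probes captured, nor whether replicates were separate cultures, so a p-value here weighs only how far the sequenced libraries differ, and that spread may be technical.

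Clusters of enhancers, also called stretch or super-enhancers, gather many binding sites for transcription factors over a long acetylated stretch and often lie beside genes that define a cell's identity. H3K9ac is another acetylation of active promoters and enhancers. H2AZ is the histone variant H2A.Z, placed in nucleosomes that flank active gene starts and many enhancers, while H3K36me3 is laid down along the bodies of transcribed genes by enzymes that travel with RNA polymerase.

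The promoters of 4 genes whose starts lie in stretch enhancers are shown because they divide by H2AZ while sharing full acetylation. They were picked after their values were seen. For a gene with several start windows in members, the one with most matches to the motifs named below was taken. All 4 windows, read from RefSeq on GRCh38.p14 and running from 250 bases before to 50 bases after the start, were covered completely by peaks in all 4 H3K27ac libraries and in both H3K9ac libraries. No H2AZ peak touched the windows of ELF3, an epithelial ETS factor (chr1:202010337-202010636, plus strand), and GDF15, a stress-induced cytokine (chr19:18385908-18386207, plus strand), in any library. The windows of SLC2A1, the glucose transporter GLUT1 (chr1:42958819-42959118, minus strand), and TFAP2A, the AP-2 alpha factor (chr6:10419610-10419909, minus strand), were covered completely by H2AZ in all 4 libraries. Capitals mark matches on either strand to the letters TATAAA of the TATA box, GGAATG of the TEAD motif, TGTTTAC of the FOXA motif and GGAAGT of the ETS motif; TGANTCA of the AP-1 motif was searched too and has no match in them.
ELF3: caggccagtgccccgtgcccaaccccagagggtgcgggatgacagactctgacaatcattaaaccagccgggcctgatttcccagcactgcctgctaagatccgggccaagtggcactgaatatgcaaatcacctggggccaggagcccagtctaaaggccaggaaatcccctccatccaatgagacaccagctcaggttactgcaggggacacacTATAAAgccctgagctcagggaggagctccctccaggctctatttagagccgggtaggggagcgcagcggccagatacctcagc
GDF15: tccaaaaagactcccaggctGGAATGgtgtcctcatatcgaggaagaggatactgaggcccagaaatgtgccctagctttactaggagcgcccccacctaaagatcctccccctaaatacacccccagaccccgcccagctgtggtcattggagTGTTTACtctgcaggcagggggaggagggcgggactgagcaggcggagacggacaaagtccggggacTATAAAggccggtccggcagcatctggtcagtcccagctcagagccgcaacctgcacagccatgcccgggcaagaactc
SLC2A1: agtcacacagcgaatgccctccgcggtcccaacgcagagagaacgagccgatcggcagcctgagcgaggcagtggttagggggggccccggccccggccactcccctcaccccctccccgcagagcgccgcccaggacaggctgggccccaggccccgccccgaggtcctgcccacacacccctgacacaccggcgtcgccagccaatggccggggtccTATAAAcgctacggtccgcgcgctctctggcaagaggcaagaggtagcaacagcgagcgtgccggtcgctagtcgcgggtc
TFAP2A: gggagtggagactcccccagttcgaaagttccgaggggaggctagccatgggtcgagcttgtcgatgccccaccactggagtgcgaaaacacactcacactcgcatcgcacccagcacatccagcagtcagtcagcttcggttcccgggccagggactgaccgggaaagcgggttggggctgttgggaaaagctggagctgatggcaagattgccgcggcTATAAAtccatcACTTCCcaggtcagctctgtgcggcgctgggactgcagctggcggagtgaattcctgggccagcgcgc

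The CG dinucleotide occurred 7 times in the ELF3 window and 11 times in the GDF15 window, against 30 times in the SLC2A1 window and 18 times in the TFAP2A window. Other fully acetylated windows in members went the other way. A MALAT1 window held 37 with no H2AZ peak in any library, and the CREB3L4 window held 8 with full H2AZ cover in all 4. The 4 picked windows therefore do not show how CG counts and H2AZ go together. Over all 795 promoter windows lying whole in a stretch enhancer the median was 19 CG dinucleotides per window. It was 26 in windows of joined regions of 3 to 10 kb, 27 in those under 3 kb and 14 over all 33558 windows. A TATAAA match stood in 10.3% of the windows in stretch enhancers, in 7.26% of those in regions of 3 to 10 kb, in 3.84% of those under 3 kb and in 11.6% of all windows. The AP-1 letters stood in 8.05%, 6.73%, 4.64% and 7.68% of the same 4 sets of windows, the TEAD letters in 14.3%, 12.6%, 10.4% and 14.1%, the ETS letters in 24.4%, 24.7%, 30.4% and 22.8%, and the FOXA letters in 2.77%, 2.43%, 2.56% and 3.44%. These shares describe letters in a window and not binding.

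Before the results, 2 facts about the libraries bear on direction. The peak lists held 42764 to 81324 peaks for the 4 chromatin marks and 128351 for ChIRP, and no read counts were used, so depth is unknown. Across the members, H3K9ac differences between the arms tended to run against H3K27ac differences. Of all 994 members, 606 had more H3K9ac cover in the library labelled Si1235 and 385 had less. Of 53 stretch enhancers whose H3K27ac cover was at least 20 percentage points lower in Si1235, 49 had more H3K9ac cover in the library labelled Si1235 and 4 had less. H2AZ was higher in 26 and lower in 24 of the same 53. Of 5 members at least 20 points higher in H3K27ac in Si1235, 3 had more H3K9ac cover in the library labelled Si1235 and 2 had less. The H3K27ac libraries of the arms did not overlap, with Si1235 lower, in 473 of the 994 members, against 36.9% of all joined regions; H3K9ac was higher in the library labelled Si1235 in 348 of those 473 (73.6%). With H3K27ac of Si1235 higher and not overlapping, in 215 members, against 10.2% of all joined regions, H3K9ac was lower in the library labelled Si1235 in 131 (60.9%). Joined regions of 3 to 10 kb showed the same order. With H3K27ac lower and not overlapping, H3K9ac there was higher in the library labelled Si1235 in 58.9% and lower in 32.8%. With H3K27ac higher, it was lower in 56.1% and higher in 36.3%. The order was weaker in joined regions under 3 kb. With H3K27ac lower and not overlapping there, H3K9ac was higher in the library labelled Si1235 in 35.3% and lower in 29.4%. With H3K27ac higher, it was lower in 39.7% and higher in 28.3%, and the rest were equal. The rule chose the regions on the NC1235 H3K27ac lists, 1 arm of this contrast, so nothing is read from the H3K27ac counts. The labels were followed for both marks. Were the arms of 1 mark exchanged, every Si1235 minus NC1235 difference given for that mark would change its sign; whether they are was not tested.

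**Figure D1:**
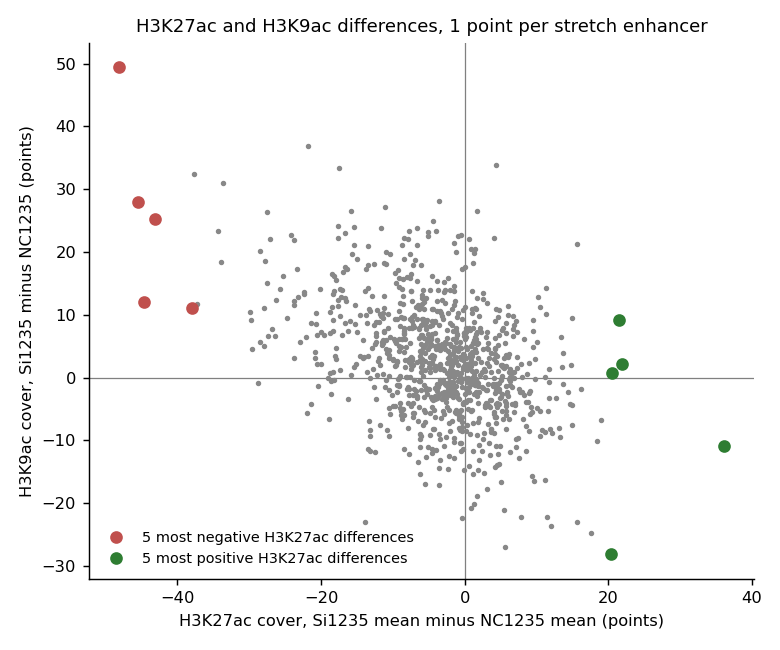
Each point is 1 of 994 stretch enhancers. The x axis gives the H3K27ac cover, mean of 2 Si1235 libraries minus mean of 2 NC1235 libraries, in percentage points, and the y axis the same difference for H3K9ac with 1 library per arm; the cloud slopes downward, and the 5 members with the most negative H3K27ac differences, in red, lie above 0 on the y axis, and 3 of the 5 with the most positive, in green, do too.

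Stretch enhancers ranged from 10009 to 63618 bp in width, with a median of 12964 bp and quartiles of 11314 and 16177 bp. They held a median of 3 H3K27ac peaks in either NC1235 list and at most 14 and 16 peaks in replicates 1 and 2, and 44 (4.43%) were a single peak in both lists. The 3 members just inside the threshold measured 10009, 10011 and 10013 bp, the last over DDIT4, and the 3 widest regions just outside it measured 9999, 9998 and 9997 bp, the last over TGFB2. Of all members, 355 (35.7%) had another within 100 kb. Chromosome 22 had the highest share of joined regions that were stretch enhancers, 5.14% of 681, and chromosome 13 the lowest, 1.49% of 737.

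The members touched 1199 annotated genes, 751 of them protein-coding, and 156 members (15.7%) touched no gene. An end of an annotated gene lay in 560 members (56.3%), and 278 (28.0%) lay wholly inside a gene body. Joined regions under 3 kb held a gene end in 26.3% and lay inside a gene body in 46.1%. A wide region meets a gene end more readily than a narrow one, so these shares are not a density. Gene starts were listed for 26246 of 36921 genes and for none on chromosome 8. On the other autosomes 431 of 949 stretch enhancers (45.4%) held a listed start. Per 100 kb of length the order was reversed, with 5.80 listed starts in stretch enhancers, 12.2 in regions of 3 to 10 kb and 27.7 under 3 kb.

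The widest member, 63618 bp at chr1:209353773-209417390, lay over the lncRNA gene LINC01698 and 166324 bp from the nearest protein-coding gene, CAMK1G, a calcium-dependent kinase. H3K27ac peaks covered 82.3% and 79.4% of it in Si1235 and 87.3% and 88.4% in NC1235, and it carried 8 ChIRP peaks, more than any other member. The second, 45139 bp on chromosome 6, lay over the lncRNA gene SCIRT. The third, 44830 bp, spanned KRT13, KRT15 and KRT19, keratins of epithelial cells. TNS3, which encodes the adhesion protein tensin 3, held the fourth (41831 bp), and SH3TC2 the fifth (41604 bp). On chromosome 20 a pair of members over lncRNA genes, 36799 and 90811 bp from CEBPB, a factor of the C/EBP family, were 39699 and 39311 bp wide and carried 6 ChIRP peaks each. SLC2A1 held a member of 39599 bp, the genes GIPC1, DNAJB1 and TECR shared one of 36355 bp, and TPRG1, next to TP63, held one of 34187 bp. H3K27ac cover in the TPRG1 member was 63.3% and 61.5% in Si1235, against 79.7% and 79.9% in NC1235.

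Lists of genes were read for overlap with the members, beside 3.25% of all genes and 3.93% of protein-coding genes that a stretch enhancer touched. Epithelial transcription factors were touched in 10 of 20 cases: GRHL1, ELF3, EHF, TFAP2A, KLF5, TP63, ZNF217, NFIB, RUNX1 and TEAD1. Cell adhesion and cytoskeleton genes were touched in 11 of 24, among them ITGA3, ITGB6, LAMA3 and LAMB3 of the integrin and laminin system and the cadherin genes CDH1 and CDH3. Of the long non-coding RNA genes 5 of 8 were touched, namely NEAT1, MALAT1, PVT1, MIR31HG and UCA1. Fewer were touched among AP-1 and immediate early genes (JUNB, IER2 and IER3, 3 of 14), receptor signalling genes (MET, IGF1R, GAB1 and SOS1, 4 of 22), Hippo and TGFB targets (AMOTL2 and TGFB2, 2 of 12) and p53 and stress genes (GDF15, 1 of 8). No ribosomal protein gene of 10 was touched. A touch is any overlap with the gene body, which a long gene meets more readily. A listed start lay in a member for 8 epithelial, 4 adhesion, 2 AP-1 and 2 long non-coding RNA genes. The receptor, Hippo and p53 lists had 1 each. The same held for 2.35% of all genes and 2.55% of protein-coding genes with a listed start. How many genes of each list had a listed start is not given, so the list counts may be too low. Chromosome 8, with PVT1 and PLEC, had no listed starts. The lists were chosen with earlier results of these data known, and the counts carry no test.

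Members over these genes differed widely in the marks that the rule did not use. H2AZ was frequent in the FOXA1 member, which holds the start of a pioneer factor of luminal cells, with 47.9% and 36.2% in Si1235 and 41.2% and 28.4% in NC1235. The GRHL1 member, over a grainyhead-like factor, had H2AZ over 26.0% and 19.4% in Si1235 and 10.5% and 8.40% in NC1235, with the arms apart. The members of ACTN1, ACTN4 and MYH9, genes of the actin cytoskeleton, had no H2AZ peak in any library but H3K36me3 in all 4. In ACTN1 H3K36me3 covered 28.7% and 28.7% in Si1235 and 18.1% and 8.30% in NC1235, and in MYH9 45.6% and 41.2% in Si1235 and 45.1% and 25.4% in NC1235. Among the early response genes the IER3 member had less H2AZ in both Si1235 libraries, 9.31% and 7.86%, than in both NC1235 libraries, 21.6% and 18.7%. MALAT1 and NEAT1, lncRNA genes of nuclear bodies, lay in members of 21223 and 20358 bp that carried both marks, with H3K36me3 over 31.2% and 32.4% of the MALAT1 member in Si1235 and 27.8% and 28.8% in NC1235. None of these members passed the limma test for either mark.

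Markers of the labelled cell type were read in the same way. Luminal genes were touched in 3 of 12 cases (KRT19, FOXA1 and CDH1) and basal or squamous genes in 3 of 12 (TP63, TRIM29 and SFN). None of 11 mesenchymal and none of 8 immune genes was touched, and of 7 endothelial genes only PECAM1 was. None of the 5 genes of the HER2 amplicon, ERBB2 included, lay in a stretch enhancer.

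H3K27ac covered 73.5% and 70.7% of the summed length of the stretch enhancers in Si1235 and 75.8% and 75.7% in NC1235. The Si1235 libraries were both lower, and the same comparison in joined regions under 3 kb gave 76.1% and 71.6% in Si1235 against 84.6% and 85.6% in NC1235. The rule fixes part of this, since only the NC1235 lists defined the regions. The difference of arm means was -3.63 points over the stretch enhancers, -5.45 over regions of 3 to 10 kb and -11.2 under 3 kb; taken as a ratio to the cover of all other joined regions in the same library, the difference for the stretch enhancers turned to 0.0563. The same rule on the Si1235 lists gave 979 regions, of which 824 (84.2%) overlapped a member, and 825 members (83.0%) overlapped one of them.

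**Figure D2:**
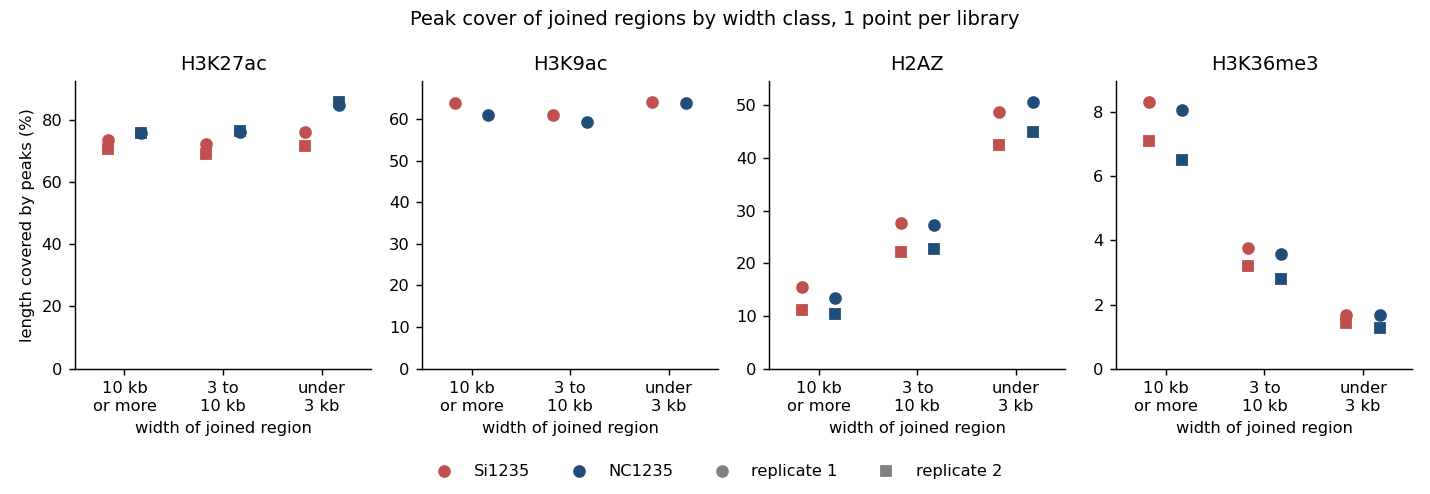
Percent of summed length covered by peaks of 4 marks (y axis, from 0) in joined regions of 3 width classes (x axis); each point is 1 library, Si1235 left and NC1235 right. H2AZ cover was lowest and H3K36me3 cover highest in the stretch enhancers of 10 kb or more.

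H3K9ac covered 63.7% of the members' length in the library labelled Si1235 and 60.9% in the one labelled NC1235, and with 1 library per arm the difference of 2.81 points has no replicate check. The mark kept to the bases acetylated at lysine 27: 94.96% of the H3K9ac bases of the library labelled Si1235 and 94.9% of those labelled NC1235 fell in NC1235 H3K27ac peaks, which filled 79.4% of the members' length. In 44 of 994 members (4.43%) H3K9ac cover was at least 20 points higher in the library labelled Si1235, against 13% of joined regions with H3K9ac. In 12 members (1.21%) it was at least 20 points lower, against 12.5%. A difference of 20 points takes more bases in a wide region than in a narrow one, so these shares are not alike in measure.

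H2AZ covered a small share of the stretch enhancers. Its peaks covered 15.4% and 11.1% of their length in Si1235 and 13.5% and 10.4% in NC1235, where the arms overlap. Regions of 3 to 10 kb had 27.6% and 22.2% in Si1235 and 27.3% and 22.6% in NC1235, and regions under 3 kb had 48.7% and 42.5% in Si1235 and 50.6% and 45.0% in NC1235. In each of the 4 libraries the cover was thus lowest in the stretch enhancers. Still, 765 members (77.0%, Wilson 95% interval 74.2% to 79.5%) held an H2AZ peak in all 4 libraries and 88 (8.85%) in none. Such intervals cover counting error only. The 2 shares were 69.4% and 12.7% in regions of 3 to 10 kb, and 55.2% and 25.2% under 3 kb. A wide region meets a peak more readily than a narrow one. Of the H2AZ summits in members, 98.6% to 98.9% lay in an NC1235 H3K27ac peak.

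The arms did not differ beyond their spread for H2AZ. The mean cover of the members was 13.3 ± 3.09% in Si1235 and 11.95 ± 2.202% in NC1235 (SD, n = 2 each), a difference of 1.30 points (exact permutation test, two-sided, p = 0.667, where 2 against 2 cannot go below 0.333). Leaving out Si1235 replicate 1 turned the difference to -0.879 and leaving out NC1235 replicate 2 turned it to -0.254. Replicate 1 had more cover than replicate 2 in both arms.

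H2AZ cover was higher near listed gene starts than elsewhere in the members, though most H2AZ bases lay more than 1 kb from a listed start. Within 1 kb of a listed start, H2AZ covered 47.3% and 37.2% of the members' bases in Si1235 and 41.0% and 33.5% in NC1235. Elsewhere it covered 12.4% and 8.53% in Si1235 and 10.6% and 8.01% in NC1235. Elsewhere takes in the 518 of 949 members without a listed start, and any gene start that is not listed. These start windows made up 8.44% of the length and 26.0% to 28.7% of the H2AZ bases. The share of promoters with H2AZ was nevertheless lower in stretch enhancers than in narrower regions in each of the 4 libraries. Of the 795 promoter windows in members, 72.1% and 62.5% met an H2AZ peak in Si1235 and 67.2% and 60% in NC1235. The 4189 windows in regions of 3 to 10 kb gave 89.0% and 84.7% in Si1235 and 87.6% and 83.2% in NC1235, and the 7648 in regions under 3 kb gave 97.4% and 95.6% in Si1235 and 97.3% and 95.8% in NC1235. No test was made of this order. H3K27ac met 92.7% to 94.7% of the windows in members over its 4 libraries. The CG counts given above fell in the same order as H2AZ between the classes, and their part in it was not tested.

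Among the 5 widest members with no H2AZ peak in any library, SH3TC2, LINC-PINT (32596 bp), B4GALT5 (28115 bp), KRT7 (24186 bp) and the UGT1A cluster (23255 bp) all carried H3K36me3 in all 4 libraries. They do not stand for all 88 such members, since a wide region meets a peak more readily than a narrow one. KRT7 encodes a keratin of simple epithelia, and its member was covered by H3K36me3 over 62.5% and 62.1% in Si1235 and 74.1% and 63.0% in NC1235. LINC-PINT, a p53-induced lncRNA, had 53.4% and 46.3% in Si1235 and 40.2% and 27.3% in NC1235. B4GALT5 had the least of the 5, with 2.19% and 1.80% in Si1235 and 3.14% and 2.35% in NC1235.

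**Figure D3:**
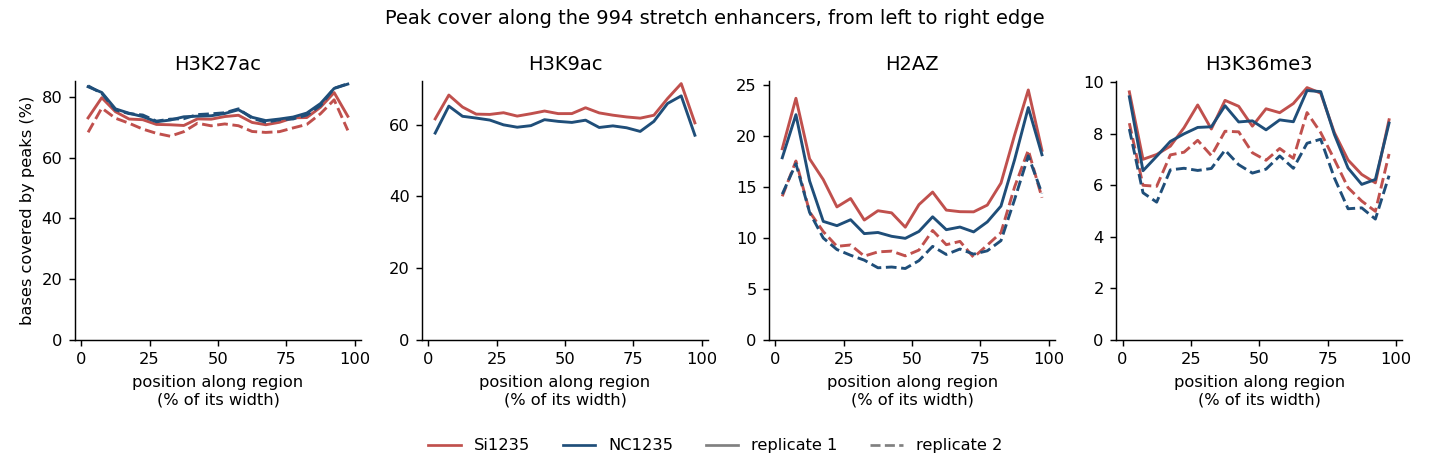
Percent of bases covered by peaks (y axis, from 0) in 20 equal bins from the left to the right edge of the 994 stretch enhancers (x axis, percent of width); each line is 1 library, Si1235 red and NC1235 blue. H2AZ cover was highest near both edges in all 4 libraries, while H3K27ac reached both edges in NC1235 because the rule sets the edges on its peaks.

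Along the stretch enhancers H2AZ was more frequent towards the edges. The first of 20 equal bins had 18.8% and 14.1% cover in Si1235 and 17.9% and 14.3% in NC1235, and the tenth bin had 11.1% and 8.25% in Si1235 and 9.97% and 7.01% in NC1235. The edges are H3K27ac peaks by the rule, so the edge and the centre do not hold the same share of acetylated bases: H3K27ac cover in NC1235 was 83.3% and 83.6% in the first bin and 73.8% and 74.4% in the tenth.

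The test across regions called no stretch enhancer for H2AZ. Of 994 members 733 had a mean H2AZ cover of at least 5% and were tested with limma among 24440 joined regions. The count of members past an adjusted p of 0.05 was 0, against 0% of all tested regions in either direction, and 23 passed an unadjusted p of 0.05, against 8.52% of all tested regions; the lowest adjusted p of a member was 0.354. The arms did not overlap, with Si1235 higher, in 190 of the 733, against 13.5% of all tested regions, and with Si1235 lower in 73, against 17.4%. The median difference, Si1235 minus NC1235, was 1.54 points over the tested members and 0 over all tested regions.

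The member with the largest H2AZ difference was the one beside LINC01235. It measured 11343 bp at chr9:13483281-13494623, was 1 single H3K27ac peak in both NC1235 lists, lay 51951 bp from LINC01235 (chr9:13406380-13431329) and touched only the lncRNA gene LOC105375977. H2AZ peaks covered 67.3% and 58.8% of it in Si1235, against 40.8% and 28.6% in NC1235, a difference of 28.4 points. Both Si1235 libraries were above both NC1235 libraries, but limma gave an unadjusted p of 0.0322 and an adjusted p of 0.514. H3K27ac covered 96.7% and 97.7% of it in Si1235 and 99.3% and 99.1% in NC1235, and H3K9ac 82.4% in the library labelled Si1235 and 80.0% in the one labelled NC1235. No H3K36me3 peak touched it. It also held the ChIRP peak of highest fold enrichment in any member, a value of 214 given by the authors' peak caller.

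**Figure D4:**
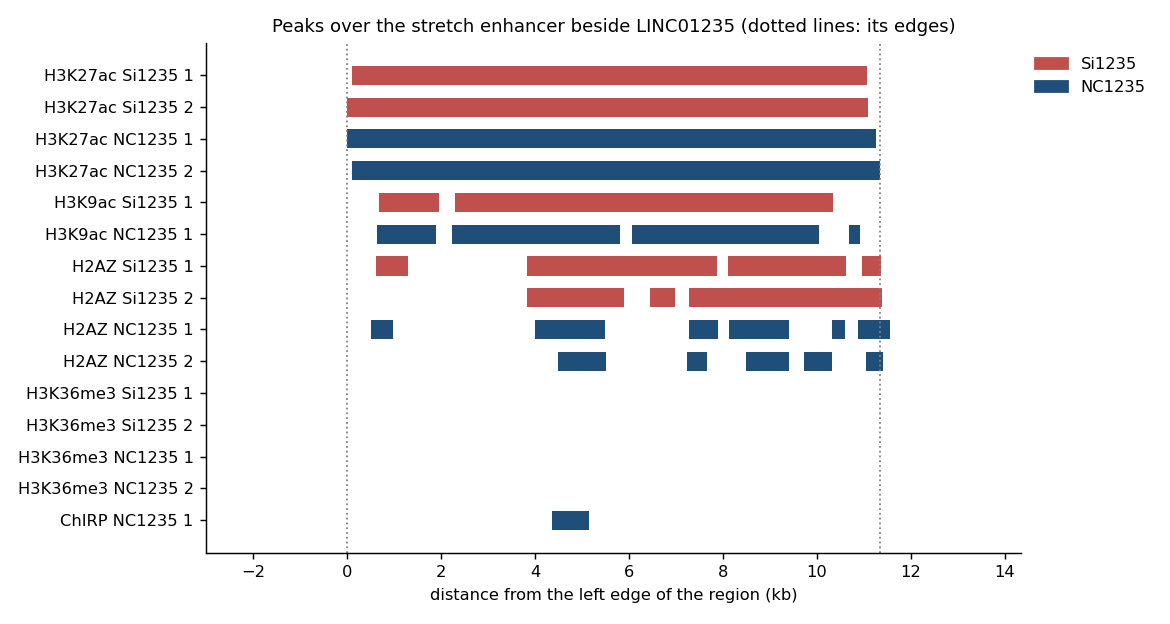
Peaks of the 15 lists (rows, Si1235 red above NC1235 blue within each mark) over the stretch enhancer beside LINC01235, by distance from its left edge in kb (x axis); dotted lines mark its edges. H2AZ peaks filled 67.3% and 58.8% of the region in Si1235 and 40.8% and 28.6% in NC1235, and 1 ChIRP peak lay in it.

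The next members in H2AZ with Si1235 above NC1235 lay over TNRC18, the homeobox gene IRX5 with the lncRNA CRNDE, ZMYND8, which reads acetylated histones, and the lncRNA LINC01119. The TNRC18 member had 50.4% and 25.4% in Si1235 and 18.4% and 11.9% in NC1235, and the LINC01119 member had 29.0% and 23.2% in Si1235 and 10.3% and 8.43% in NC1235. Their adjusted p-values from limma were 0.814 and 0.423. In the other direction stood a member 55513 bp from ANGPT1, which encodes an angiopoietin, and members over DUSP4, a phosphatase of MAP kinases, the lncRNA CCAT1, CLCA2, and LINC02768 near LYST. The DUSP4 member had 14.4% and 12.1% H2AZ cover in Si1235 and 33.6% and 24.0% in NC1235, with an adjusted p of 0.568 from limma. None of these 10 members passed the test.

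**Figure D5:**
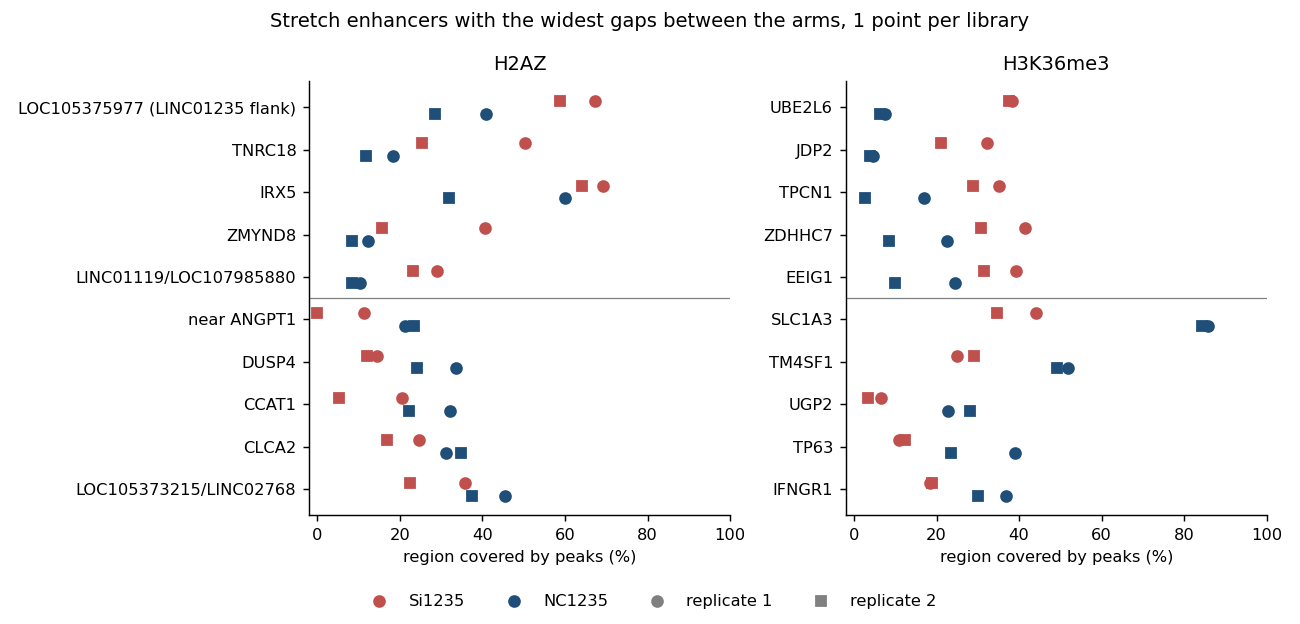
Percent of each stretch enhancer covered by H2AZ peaks (left) or H3K36me3 peaks (right); each point is 1 library, Si1235 red and NC1235 blue, and rows are named by genes touched or nearest. Above the grey line are the 5 members with the largest differences with Si1235 higher, below it the 5 with Si1235 lower, among members whose arms do not overlap.

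H3K36me3 covered a larger share of stretch enhancers than of narrower regions in each of the 4 libraries, as a description. It covered 8.30% and 7.10% of the members' length in Si1235 and 8.06% and 6.49% in NC1235. Regions of 3 to 10 kb had 3.76% and 3.20% in Si1235 and 3.59% and 2.79% in NC1235, and regions under 3 kb had 1.67% and 1.42% in Si1235 and 1.67% and 1.26% in NC1235. An H3K36me3 peak was present in all 4 libraries in 302 members (30.4%, Wilson 95% interval 27.6% to 33.3%), and 565 had none in any. A wide region can meet a peak more readily than a narrow one, which the covered share of length does not share.

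Within the members the mark lay mostly in protein-coding gene bodies. In the 50.7% of their length that lay in protein-coding genes, H3K36me3 covered 14.7% and 12.6% in Si1235 and 14.4% and 11.6% in NC1235. Outside them it covered 1.77% and 1.45% in Si1235 and 1.56% and 1.29% in NC1235. H2AZ showed the opposite order, with 12.2% and 8.86% in Si1235 and 10.3% and 7.94% in NC1235 inside coding genes, and 18.7% and 13.3% in Si1235 and 16.8% and 12.9% in NC1235 outside them. The member over AMOTL2, a regulator of the Hippo pathway, combined almost no H2AZ (1.01% and 1.12% in Si1235, 0% and 0.831% in NC1235) with H3K36me3 over 63.9% and 60.3% in Si1235 and 64.2% and 60.4% in NC1235. The member over NFIB, the nuclear factor gene on the same chromosome as LINC01235, was the reverse, with no H3K36me3 peak and H2AZ over 47.8% and 47.4% in Si1235 and 38.3% and 38.4% in NC1235.

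For H3K36me3 the arms again overlapped over the members as a whole. Mean cover was 7.70 ± 0.848% in Si1235 and 7.28 ± 1.11% in NC1235 (SD, n = 2 each), a difference of 0.425 points (exact permutation test, two-sided, p = 0.667). It turned to -0.175 without Si1235 replicate 1, to -0.361 without NC1235 replicate 2 and to -0.0684 as a ratio to the cover of all other joined regions. Of the 284 members with a mean cover of at least 5%, limma called 0 among 2174 tested regions at an adjusted p of 0.05, where it called 1 region (0.046%), lower in Si1235 and not a member; 22 members passed an unadjusted p of 0.05, against 11.8% of all tested regions. The arms did not overlap, with Si1235 higher, in 77 of the 284, against 25% of all tested regions, and with Si1235 lower in 46, against 15.8%. The median difference was 1.03 points over the members and 1.04 over all tested regions.

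The lowest adjusted p of any member in H3K36me3 was 0.100, over UBE2L6, which encodes the enzyme that passes the ubiquitin-like protein ISG15 to its targets. Its member (chr11:57559800-57569840) was covered over 38.3% and 37.6% in Si1235, against 7.40% and 6.25% in NC1235, a difference of 31.2 points with non-overlapping arms. JDP2, a repressor of AP-1, had 32.3% and 21.0% in Si1235 and 4.69% and 3.81% in NC1235. TPCN1, ZDHHC7 and EEIG1 held the other 3 members with the largest differences in this direction, with adjusted p-values from limma of 0.409, 0.469 and 0.492.

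The largest difference with Si1235 lower lay over SLC1A3, a glutamate transporter, where H3K36me3 covered 44.1% and 34.5% of the member in Si1235, against 85.6% and 84.2% in NC1235. The difference was -45.6 points with an adjusted p of 0.218 from limma, so it did not pass. TM4SF1, a tetraspanin-like surface protein, had 25.0% and 29.0% in Si1235 and 51.7% and 49.3% in NC1235. UGP2, TP63 and IFNGR1, the interferon gamma receptor, followed. TP63, the squamous and basal master factor, held a member of 29489 bp in which H3K36me3 covered 10.98% and 12.3% in Si1235 and 38.9% and 23.6% in NC1235 (adjusted p = 0.432 from limma), H3K27ac 50.7% and 49.9% in Si1235 and 78.1% and 78.3% in NC1235, and H3K9ac 57.2% in the library labelled Si1235 and 52.1% in the one labelled NC1235. No ChIRP peak lay in it. A second TP63 member of 10673 bp had H3K27ac over 43.5% and 43.0% in Si1235 and 67.7% and 71.3% in NC1235.

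Of the 5 members with the most negative H3K27ac differences, only the one in EIF4E3, which encodes a cap-binding protein, touched an annotated gene. Over all members, 156 (15.7%) touched no gene. The 5 were ranked on the contrast that the rule used and do not stand for other members. In the member 55513 bp from ANGPT1 H3K27ac covered 23.7% and 17.2% in Si1235 and 68.7% and 68.4% in NC1235, while H3K9ac covered 51.4% in the library labelled Si1235 and 1.98% in the one labelled NC1235. A second one lay 21052 bp from ANGPT1, and the other 2 lay on chromosome 5 at 165222 bp from C1QTNF3 and on chromosome 2 at 21658 bp from EVA1A. H3K9ac was higher in the library labelled Si1235 in all 5. The 5 most positive differences lay near PPCDC, TOP1 and TRIB2, over PEDS1 and over CRAT with PTPA. The member near PPCDC had H3K27ac over 84.1% and 87.9% in Si1235 and 56.2% and 43.6% in NC1235, with H3K9ac at 29.1% in the library labelled Si1235 and 40.01% in the one labelled NC1235.

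ChIRP peaks covered 2.34% of the members' length, 2.34% in regions of 3 to 10 kb, 2.36% under 3 kb and 1.75% of the autosomes between the first and last ChIRP peak. By summits, the members had 0.570 peaks per 10 kb (exact Poisson 95% interval 0.532 to 0.610, counting error only), against 0.587 and 0.588 in the 2 narrower classes and 0.436 on the autosomes. Counting any overlap of 1 bp, the members had 0.586 per 10 kb, against 0.627 in regions of 3 to 10 kb and 0.749 under 3 kb. The overlap count also takes in peaks whose summit lies outside a region, so it adds more per 10 kb where regions are narrow. A ChIRP peak lay in 572 members (57.5%), in 27.3% of regions of 3 to 10 kb and in 9.62% of those under 3 kb, a share that grows with width. Of 830 ChIRP summits in members 81.8% (Wilson 95% interval 79.0% to 84.3%) lay in an NC1235 H3K27ac peak, and such peaks filled 79.4% of the members' length.

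Single members with many or strong ChIRP peaks were few. There were 422 members with none, 376 with 1, 136 with 2, 47 with 3, 6 with 4, 4 with 5, 2 with 6 and 1 with 8. Per 10 kb the highest values were 3.58 in a member of TENM4, 3.39 in one of CP, the copper carrier ceruloplasmin, 3.30 in one of MYO16, 3.18 over VEGFB with its neighbours and 3.15 over GSN, which encodes the actin-severing protein gelsolin. By the authors' fold enrichment the member beside LINC01235 led with 214, followed by 110 over the lncRNA LINC02939 on chromosome 22, 107 over SDC4, which encodes the proteoglycan syndecan 4, 106 in a member 562772 bp from IGFBP3 and 96.8 in LINC-PINT. The median fold of ChIRP peaks touching members was 10.7, beside 11.05 over all ChIRP peaks. The list comes from 1 library, so none of these values has a replicate.

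Stretch enhancers also held 31 miRNA genes in 28 members, 2.13 per Mb, against 2.41 per Mb in regions of 3 to 10 kb and 2.34 under 3 kb. Mature sequences from RefSeq on GRCh38.p14 of 5 of them are given, with the seed, bases 2 to 8, in capitals. They were picked after the values were seen, as well-studied miRNAs in the VMP1 and MIR23AHG members and the miRNA of the TP63 member; the widest member with a miRNA gene, that of the keratins, holds MIR6510. No seed is shared among the 5.
hsa-miR-21-5p: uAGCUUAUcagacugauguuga
hsa-miR-23a-3p: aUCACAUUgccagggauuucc
hsa-miR-27a-3p: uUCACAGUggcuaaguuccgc
hsa-miR-24-3p: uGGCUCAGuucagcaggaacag
hsa-miR-944: aAAUUAUUguacaucggaugag

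The member with MIR21, at chr17:59827226-59859892 over VMP1 and TUBD1, was 32667 bp wide. MIR21 produces a miRNA that represses tumour suppressor transcripts. H3K27ac covered 94.3% and 93.8% of it in Si1235 and 97.2% and 97.1% in NC1235, and H2AZ 5.20% and 1.89% in Si1235 and 0.784% and 0% in NC1235. The genes of miR-23a, miR-27a and miR-24 lay in 1 member of 29608 bp over their host gene MIR23AHG, with H3K27ac over 78.4% and 73.9% in Si1235 and 69.7% and 70.5% in NC1235. Unlike the MIR21 member it had more H3K27ac in both Si1235 libraries than in both NC1235 libraries, as a description. MIR944 lay in the TP63 member described above.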

How the data were processed

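HCC1954 chromatin was profiled in peak lists of 15 libraries, grouped by the labels' titles. Per the submitters' processing notes, which give tools without roles, Bowtie2 2.2.9, MACS2, HTSeq 2.0.3, DESeq2 1.22.2 and the hg38 build were used. The authors' deposited peak lists give, per peak, a fold enrichment (a ratio) and the −log10 of the p-value and q-value. They hold no read counts, so depth is unknown, and a deeper library can give more and wider peaks. Input lists were not used here. H3K9ac peak names in the deposited files carry another residue; the labels were followed.

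Joined regions were built as stated in the report. The percent of each region covered by a library's peaks was tested with limma 3.58.1 (R 4.3.3, trend on, mean cover of at least 5%), with Benjamini-Hochberg adjustment over all tested regions and a threshold of 0.05. Whole-member cover was compared by exact permutation. Python 3.11.15, pandas 2.3.3, numpy 2.4.6, scipy 1.17.1 and matplotlib 3.10.9 served for the rest. The limma step was also run on simulated data, with changes placed only in regions of intermediate mean cover. Most stretch enhancers had less H2AZ and H3K36me3 cover than those regions. The simulation therefore does not show which differences could be found in the members. Genes, promoters and miRNAs came from RefSeq tables of GRCh38.p14; 26246 of 36921 genes had a listed start. The text names the 10 widest members, those nearest the threshold, the 5 with the largest differences in each direction for each mark, those with most or strongest ChIRP peaks, the 5 widest without H2AZ, list members and the member beside LINC01235. The members and lists were chosen with earlier results of these data known. Alternatives were other join distances, lengths, q-value and cover filters, equal peak numbers, quantile normalization, a replicate block and leaving out each replicate.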

Additional observations from a re-analysis of the deposited data

How the results depend on the processing

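No stretch enhancer passed limma for H2AZ or H3K36me3 under any alternative run, including the fit with the replicate block, where both counts were 0. Some of these fits did call other joined regions: for H2AZ 1039 of 24381 without NC1235 replicate 2, 407 of 24115 without Si1235 replicate 1, 269 of 23796 without NC1235 replicate 1 and 100 of 23234 with peaks of −log10 q of at least 5, against 0 of 24440 with all libraries. For H3K36me3 they called 44 of 2074 without Si1235 replicate 1, 31 of 2124 without NC1235 replicate 1, 23 of 2172 without Si1235 replicate 2 and 7 of 1690 at a mean cover of at least 10%, against 1 of 2174. With a replicate left out, the lone library of its arm is assumed to vary like the pair of the other arm. The lowest adjusted p of a member over the alternatives was 0.127 for H2AZ and 0.0577 for H3K36me3. With the replicate block the differences in cover were 1.30 points for H2AZ, 0.425 for H3K36me3 and -3.63 for H3K27ac, which a block cannot move in a balanced design, so they say nothing about stability; the labels do not say that replicate numbers pair libraries, and same-numbered deviations correlated at 0.084, -0.015 and 0.037 in the same order of marks. Leaving out each replicate gave differences of -0.879 to 3.48 points for H2AZ, with -0.254 without NC1235 replicate 2, of -0.361 to 1.21 for H3K36me3, with -0.175 without Si1235 replicate 1, and of -5.04 to -2.22 for H3K27ac. As a ratio to the cover of all other joined regions the difference was 0.0469 for H2AZ and turned to -0.0684 for H3K36me3 and to 0.0563 for H3K27ac. The H3K9ac difference was 3.00 points with peaks of −log10 q of at least 5 and 2.79 with equal numbers of peaks. The number of stretch enhancers was 400 with a join distance of 1 kb, 1834 with 5 kb and 320 with a minimum of 15 kb, and 870 to 893 with 1 list left out. The share with a ChIRP peak was 71.9% at 15 kb and 53.5% at a join distance of 1 kb. The share with H2AZ in all 4 libraries was 69.8% with the stricter q, 65.0% with at least 500 bp covered and 80% at 15 kb, and for H3K36me3 it was 26.0%, 25.1% and 40.9%. The causes were not tested. Without read counts, peak number and width limit every cover value.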
